A study of Mus musculus with 96 samples.

Results

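Transcripts of the pocket proteins and of the factors that form the DREAM and MuvB complexes were followed in fibroblasts entering the cell cycle. The set has 10 genes of the 15895 in the table, taken by symbol: the pocket proteins Rb1, Rbl1 and Rbl2, the dimerisation partners Tfdp1 and Tfdp2, the MuvB core members Lin9, Lin37 and Lin54, and the transcription factors Mybl2 and Foxm1. The cells were primary mouse embryonic fibroblasts (MEFs) of the CF-1 strain, from embryos at day 13, and the labels name no engineered allele. All cells were starved in 0.5% fetal calf serum for 36 h, and serum was then raised to 20%. RNA was sequenced in 2 time courses, called Cycle 1 and Cycle 2. Both started 1 h ahead of the serum. Cycle 1 has 64 libraries, the last at 38 h, of which 63 were analysed here (the library at 12.5 h was not), and Cycle 2 has 32, the last at 27 h. The libraries at -1 h and 0 h of each Cycle are the starved cells, and 29 hours after serum were sampled in both Cycles. The 2 Cycles are the replicates (n = 2), with 1 library per hour in each, and nothing in the labels says whether they came from separate embryos. Where they did not, the p-values measure only the spread between these samples. The authors state that starvation and serum need not synchronise all cells and that the starts of the 2 series may differ. They estimated an offset between the series for each gene. Here libraries were paired by the hour in the label, with no offset.

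Pocket proteins bind E2F transcription factors and hold cell cycle genes silent until cyclin-dependent kinases phosphorylate them. In resting cells Rbl2 (p130) or Rbl1 (p107) joins E2F4, a DP partner and the MuvB core of LIN9, LIN37, LIN52, LIN54 and RBBP4 in the DREAM complex, which represses genes of both S phase and mitosis. When cells enter the cycle the complex comes apart, and the MuvB core then binds B-MYB (Mybl2) and FOXM1, which activate mitotic genes. DREAM reaches DNA through E2F sites by its E2F and DP subunits, and through the cell cycle homology region (CHR) by LIN54.

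Since these complexes act at promoters and several of the members are themselves known E2F targets, promoter sequences of the RefSeq tables (GRCm38.p6) were searched from 250 bases before to 50 bases after the start of transcription. Entries were found for 7 of the 10 genes. Foxm1, Lin9 and Rb1 had none. E2F sites were looked for as TTTCGCGC, TTTGGCGC and GGCGGGA, and the CHR as TTTGAA, on both strands. An E2F form was present in 5 of the 7 genes (Rbl1, Tfdp1, Lin37, Lin54 and Mybl2) and in 12% of 32851 promoters in all. The single forms were found in 0.323%, 0.514% and 11.3% of those promoters. The CHR letters were in 3 of the 7 genes (Rbl2, Lin37 and Lin54) and in 17.9% of all promoters. The 7 genes have 10 promoter entries, and a gene was counted if any of its entries matched. The percentages are over single entries, so the units differ. No match overlapped another. A match describes the letters only. The 250 bases before the start are printed for 5 members, 5′ to 3′ on the strand of the gene with matches in capitals. Mybl2, Rbl1, Tfdp1 and Lin54 are shown because they hold an E2F form and had their highest shared-hour value of Cycle 1 between 15 and 18 h, and Rbl2 because it stayed low over the same hours. Mybl2 lies at chr2:163054385-163054634 on the plus strand, Rbl1 at chr2:157204535-157204784 on the minus strand, the first of the Tfdp1 entries at chr8:13338501-13338750 on the plus strand, the Lin54 entry with an E2F form at chr5:100498574-100498823 on the minus strand and Rbl2 at chr8:91069807-91070056 on the plus strand.
Mybl2: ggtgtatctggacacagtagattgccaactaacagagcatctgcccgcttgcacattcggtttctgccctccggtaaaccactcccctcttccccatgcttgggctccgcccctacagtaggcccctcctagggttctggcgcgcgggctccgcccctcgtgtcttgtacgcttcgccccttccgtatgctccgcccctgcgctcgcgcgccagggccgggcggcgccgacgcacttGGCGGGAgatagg
Rbl1: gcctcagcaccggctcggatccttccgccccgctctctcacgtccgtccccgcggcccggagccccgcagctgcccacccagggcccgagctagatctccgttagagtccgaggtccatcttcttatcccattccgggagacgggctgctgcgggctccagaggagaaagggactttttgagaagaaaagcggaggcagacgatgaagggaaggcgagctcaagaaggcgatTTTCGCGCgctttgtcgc
Tfdp1: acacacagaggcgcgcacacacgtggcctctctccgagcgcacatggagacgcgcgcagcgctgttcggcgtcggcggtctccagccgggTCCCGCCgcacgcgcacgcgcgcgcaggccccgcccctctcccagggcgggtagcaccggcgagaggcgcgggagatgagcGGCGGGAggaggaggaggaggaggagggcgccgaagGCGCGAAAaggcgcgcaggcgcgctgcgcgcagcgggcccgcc
Lin54: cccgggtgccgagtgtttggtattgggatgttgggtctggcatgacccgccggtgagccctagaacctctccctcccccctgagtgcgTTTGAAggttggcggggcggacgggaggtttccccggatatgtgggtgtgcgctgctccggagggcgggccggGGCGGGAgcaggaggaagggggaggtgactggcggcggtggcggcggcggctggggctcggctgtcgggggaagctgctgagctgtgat
Rbl2: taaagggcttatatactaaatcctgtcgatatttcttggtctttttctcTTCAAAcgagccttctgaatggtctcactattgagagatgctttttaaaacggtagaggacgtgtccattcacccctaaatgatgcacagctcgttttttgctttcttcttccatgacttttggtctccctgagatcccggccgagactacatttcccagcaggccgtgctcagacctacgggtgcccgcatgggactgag
In Mybl2 the form GGCGGGA began 13 bases before the start, and in Rbl1 the form TTTCGCGC began 18 bases before it. Tfdp1 had 3 matches, TCCCGCC at 160, GGCGGGA at 79 and GCGCGAAA at 43 bases before the start. The printed Lin54 entry had TTTGAA at 162 and GGCGGGA at 89 bases before the start. The other Lin54 entry (chr5:100500640-100500889) had no E2F form, and TTTGAA began at base 41 after its start. Rbl2 had no E2F form in this window and the CHR letters, on the minus strand, 201 bases before the start. Lin37, not printed, had TTTGAA at 197 and TCCCGCC at 16 bases before the start. Its highest shared-hour value of Cycle 1 was at 14 h. The printed promoters were chosen in part by the course of the gene, so they do not show whether matches go with a rise.

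The value of a gene is its number of reads on exons, scaled by the authors to a common total of 1e+07 reads per library. Sequencing depth, worked out from the value of a single read in each library, was 5067431 to 14500103 reads, with a median of 10832656. The member with the fewest reads in any library was Lin9 (21 reads), followed by Rb1 and Mybl2 (24 reads each). Per kilobase of exon (GENCODE vM1), the median level over all 95 libraries was 275 for Tfdp1, 167 for Foxm1, 63.8 for Lin37, 54.4 for Lin54, 50 for Mybl2, 40.9 for Lin9, 36.6 for Tfdp2, 34.7 for Rbl1, 22.3 for Rbl2 and 21.6 for Rb1. The length is that of all exons of a gene. Values of Rbl1, Tfdp2, Lin9 and Lin54 are averages over transcripts, so their levels per kilobase are not strictly comparable with the others. The fibroblast markers (Col1a1, Col1a2, Col3a1, Vim, Thy1, Pdgfra, Pdgfrb and Fn1) were high in every library, with summed values from 171906 to 531590. Summed values of the lists for other cell types did not exceed 968 for leukocytes, 272 for endothelium, 607 for epithelium, 567 for neural cells and 2238 for skeletal muscle, and Pecam1, Cdh5, Epcam, Krt5, Myod1, Myog and Gfap were at 0 in some libraries. Between starved Cycle 1 and Cycle 2 cells the leukocyte sum went from 236 to 280 up to 410 to 424, and the muscle sum from 771 to 900 up to 1700 to 1704. The epithelial sum went from 284 to 305 down to 109 to 114. Their part in the differences between Cycles given below was not tested. The library of Cycle 1 at 24.5 h stood furthest from its neighbours in time, with a median distance of 0.411 on the log2 scale over 9112 genes. It is not among the shared hours and entered no test. In it Rb1 was at 33.6, against 168 at 24 h and 129 at 25 h.

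Changes were tested with limma on log2(value + 1) over all 15895 genes at the shared hours, with Cycle as a block. They are log2 differences from the starved libraries, with Benjamini-Hochberg adjusted p-values. In the test over the whole time course every member had an adjusted p under 0.05, the highest being 0.0261 for Lin37. With the added condition of a 2-fold mean change at some hour, 5 members were called (Rb1, Rbl1, Rbl2, Mybl2 and Foxm1), against 52.5% of all genes, a share close to the background. Windows of the time course were called at an adjusted p under 0.05 and a change of at least 1.5-fold. At 1 to 3 h no member was up (8.82% of all genes) and 3 were down (25.2%). At 4 to 6 h no member was up (13.3%) and 4 were down (30.5%). At 7 to 10 h none was up (13.6%) and 3 were down (26.9%). At 11 to 14 h 1 was up (14.4%) and 2 were down (25.3%). At 15 to 18 h 4 were up (14.7%) and 1 was down (25.5%). At 19 to 23 h 3 were up (15.4%) and 1 was down (27.9%), and at 24 to 27 h 3 were up (14.2%) and 1 was down (29%). No member was up before 11 h with edgeR either, nor with limma at an unadjusted p under 0.05. The called falls before 11 h were pocket proteins and Tfdp2, in counts near the background of all genes. The called rises from 11 h on were Mybl2, Foxm1, Lin9 and Tfdp1. Lin37 and Lin54 were called in no window. In Cycle 2 alone, fitted without Cycle 1, none of the rises was called and 7 of the 15 falls were lost. That fit has 1 residual degree of freedom. The changes of each Cycle are given beside the largest change of each called member and beside the largest rises and falls of the gene lists. The median change of all genes was -0.26 at 1 to 3 h and 4 to 6 h with the authors' scaling and -0.04 and -0.08 with TMM scaling, so called falls in these windows are also given relative to that median. Rises made up 25.9% and 30.4% of the calls in these windows, and 45.8% and 42.8% with TMM, or 48.7% and 43.5% with median-of-ratios scaling.

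**Figure D1:**
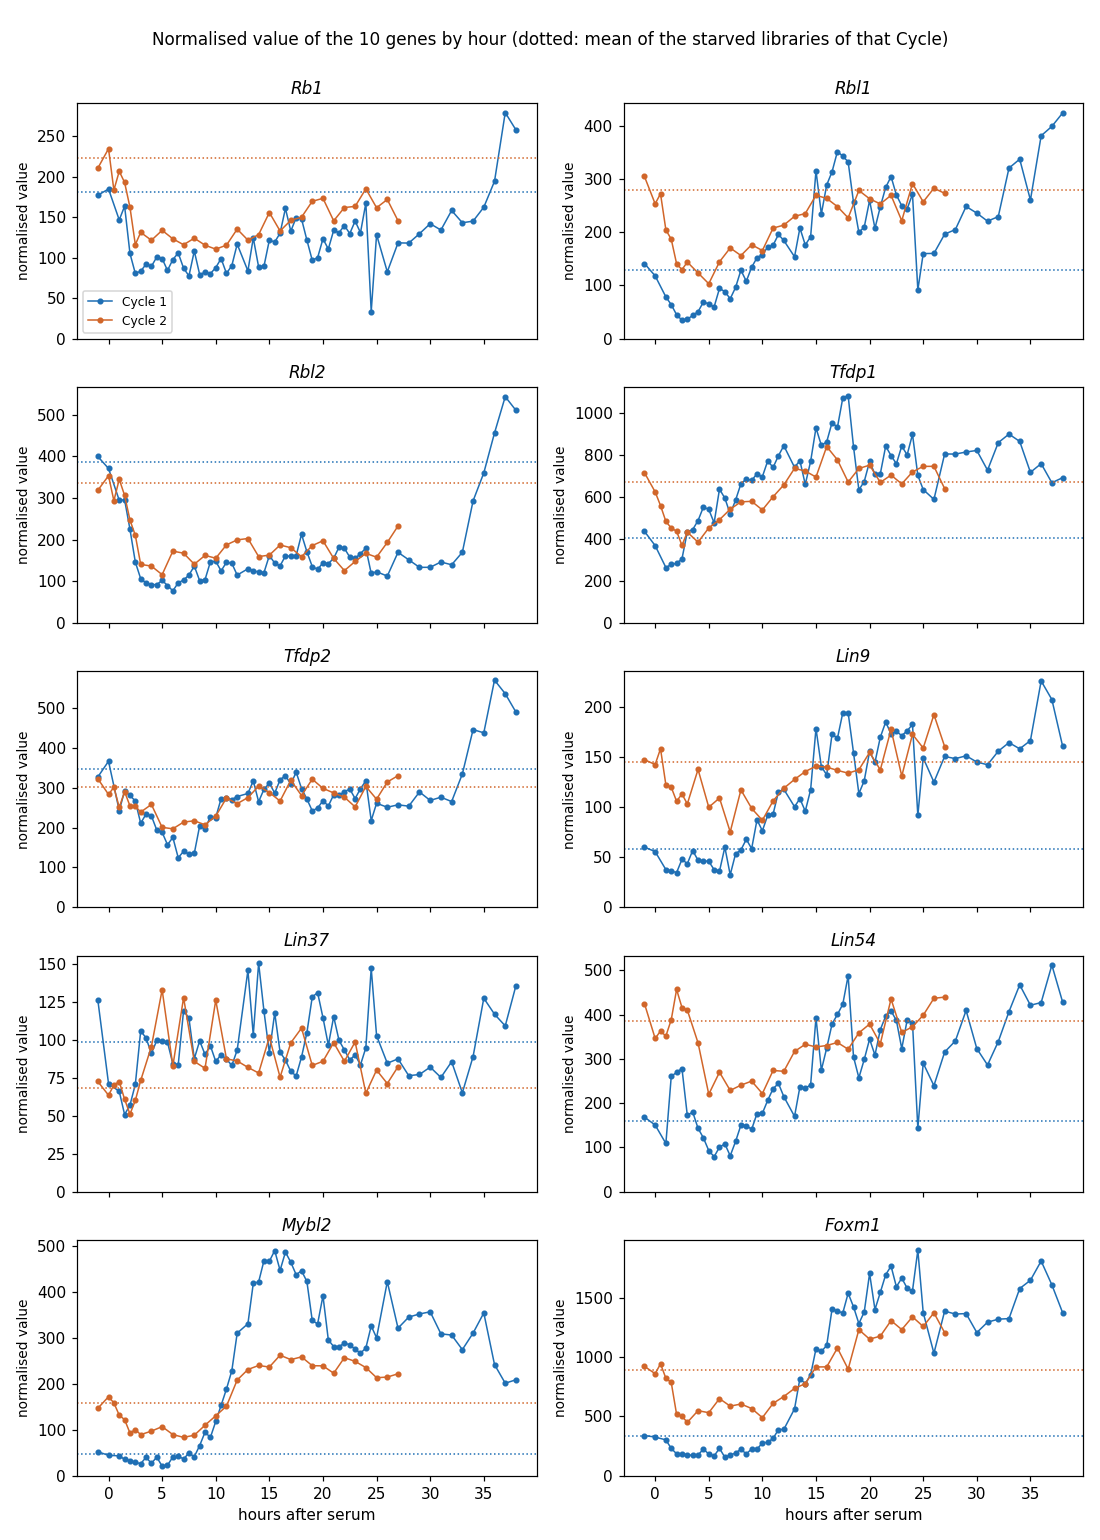
Normalised value (reads scaled to a common library total) of each of the 10 genes against hours after serum. Points are single libraries of Cycle 1 (blue) and Cycle 2 (orange), and dotted lines are the mean of the starved libraries of each Cycle. Rbl2 fell from 371 or more in starved Cycle 1 cells to 77.3 at 6 h and was at 543 at 37 h, whereas Mybl2 went from 52.6 or less to 467 at 15 h. The low Cycle 1 point of Rb1 at 24.5 h belongs to the library that stood apart.

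Rbl2, the pocket protein of resting cells, was the only member called in every window, always as a fall. In Cycle 2 alone its calls at 1 to 3 h and 11 to 14 h were lost. Its gene spans chr8:93593956-93647743 on the plus strand of NCBIM37 (mm9). Starved values were 400 and 371 in Cycle 1 and 319 and 354 in Cycle 2. By 4 to 6 h they were 77.3 to 102 (median 92.4) in Cycle 1 and 116 to 173 (median 137) in Cycle 2. Every library of that window was below every starved library of either Cycle. The fall was 3.18-fold (log2 change -1.67, SE 0.167, limma adjusted p = 2.65e-10), or -1.41 relative to the median of all genes. It was seen in both Cycles, at -2.08 in Cycle 1 and -1.26 in Cycle 2. At 24 to 27 h Rbl2 was still 2.19-fold below starved cells (log2 change -1.13, SE 0.158, limma adjusted p = 2.29e-07). The change there was -1.42 in Cycle 1 and -0.85 in Cycle 2. The values passed the middle between the starved mean and the minimum at 2 h in Cycle 1 and at 2.5 h in Cycle 2. At 1 to 3 h the change was -0.72, or -0.46 relative to the median of all genes, and under TMM scaling it was -0.49, below the 1.5-fold minimum. Of the exon bases of Rbl2 9.95% overlap exons of Aktip on the opposite strand, and the authors counted both strands.

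Rb1, the retinoblastoma gene, fell in the first hours and had its largest change at 7 to 10 h. It spans chr14:73583480-73725629 on the minus strand. Starved values were 177 and 185 in Cycle 1 and 211 and 235 in Cycle 2. At 7 to 10 h they were 82.1 to 108 in Cycle 1 (median 87.6) and 111 to 124 in Cycle 2 (median 116), so that no library of the window reached a starved value. The fall was 1.94-fold (log2 change -0.96, SE 0.0996, limma adjusted p = 7.73e-10). The changes of the Cycles were -0.99 and -0.93, closer to each other than for any other called member in this window. From 15 h on the change was between -0.48 and -0.52, with adjusted p-values of 6.19e-05 or lower, under the 1.5-fold minimum. The call at 1 to 3 h (log2 change -0.59, 1.51-fold) lay at the threshold, was -0.33 relative to the median of all genes and was -0.36 under TMM scaling. The 1 to 3 h call also fell under the minimum, at -0.57 and -0.58, without the 0 h library of Cycle 1 or of Cycle 2. At 4 to 6 h Rb1 was at -0.87, or -0.61 relative to that median. Exons of Rcbtb2 and Lpar6, on the opposite strand, cover 8.11% and 6.78% of the exon bases of Rb1.

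Rbl1, the pocket protein of cycling cells, had an early minimum and then rose again. It spans chr2:156971629-157030270 on the minus strand. Starved values were 141 and 118 in Cycle 1 and 305 and 253 in Cycle 2. At 1 to 3 h Rbl1 was at 34.9 to 78.5 in Cycle 1 and at 130 to 204 in Cycle 2, each below the starved libraries of the same Cycle. The fall was 2.13-fold (log2 change -1.09, SE 0.274, limma adjusted p = 0.0011), with -1.37 in Cycle 1 and -0.80 in Cycle 2. Relative to the median of all genes the change was -0.83. At 4 to 6 h it was -1.05, or -0.79 relative to that median. It was lowest at 2.5 h in Cycle 1 and at 5 h in Cycle 2, where it was 3.72-fold and 2.7-fold below the starved mean. From there it reached 352 at 17 h in Cycle 1, 10.1 times its minimum and 2.71 times its starved mean, and 291 at 24 h in Cycle 2, 2.82 times its minimum and 1.04 times its starved mean. The mean change at 15 to 18 h was 0.58 (SE 0.284, limma adjusted p = 0.0759), not called. It was 0.63 under TMM scaling and 0.66 with edgeR on recovered reads, which called it (edgeR adjusted p = 0.0255). The 2 Cycles differed there, with 1.31 in Cycle 1 and -0.14 in Cycle 2.

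Of the DP partners, which dimerise with E2F proteins, Tfdp1 was called only as a rise and Tfdp2 only as a fall, in different windows. At 1 to 3 h both were below starved cells, at -0.50 and -0.33, and neither was called. Tfdp1 (chr8:13338751-13378395, plus strand) had starved values of 437 and 369 in Cycle 1 and 717 and 625 in Cycle 2. Values at 15 to 18 h were 864 to 1085 in Cycle 1 and 673 to 842 in Cycle 2. All Cycle 1 libraries of this window were above the starved libraries of both Cycles, whereas those of Cycle 2 overlapped their own starved libraries. The rise was 1.62-fold (log2 change 0.70, SE 0.172, limma adjusted p = 0.000804), with 1.24 in Cycle 1 and 0.15 in Cycle 2. Without the 0 h library of Cycle 1 it was 0.53, under the 1.5-fold minimum. Tfdp2 (chr9:96096694-96224065, plus strand) had starved values of 327 and 366 in Cycle 1 and 322 and 283 in Cycle 2. At 7 to 10 h it was at 136 to 225 in Cycle 1 and 207 to 229 in Cycle 2, below all starved libraries, a fall of 1.68-fold (log2 change -0.75, SE 0.0997, limma adjusted p = 1.06e-07). The change was -1.02 in Cycle 1 and -0.48 in Cycle 2. The call of Tfdp2 at 4 to 6 h (-0.65, or -0.39 relative to the median of all genes) was lost under TMM scaling, where it was -0.47, and without the 0 h library of Cycle 1, where it was -0.57. From 11 h on Tfdp2 differed from starved cells by 0.22 or less in log2 and was called in no window.

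Of the MuvB genes Lin9, Lin37 and Lin54, Lin9 alone was called. Lin9, a scaffold of the core (chr1:182571498-182620816, plus strand), had starved values of 60.1 and 55.6 in Cycle 1 and 147 and 143 in Cycle 2. At 24 to 27 h it was at 125 to 183 in Cycle 1 and at 159 to 192 in Cycle 2, above the starved libraries of the same Cycle in every case. The rise was 1.74-fold (log2 change 0.80, SE 0.296, limma adjusted p = 0.0192), with 1.36 in Cycle 1 and 0.23 in Cycle 2. It was also called at 15 to 18 h (0.72, limma adjusted p = 0.0359) and 19 to 23 h (0.71, limma adjusted p = 0.0298), but there Cycle 2 contributed -0.07 and 0.02, so these rises were those of Cycle 1. Without the Cycle as a block none of the 3 calls of Lin9 was kept (limma adjusted p = 0.105, 0.091 and 0.0679). Without either starved library of Cycle 1 they were lost as well, with changes of 0.57 to 0.69.

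Lin54, the DNA-binding member (chr5:100870937-100929658, minus strand), had starved values of 168 and 150 in Cycle 1 and 425 and 346 in Cycle 2. It was called in no window, and its profile had an early high and a later one. In Cycle 1 it was at 109 at 1 h, then at 260, 270 and 278 at 1.5, 2 and 2.5 h, and at 172 at 3 h. In Cycle 2 it was at 351 at 1 h, at 388, 457 and 416 at 1.5, 2 and 2.5 h and at 410 at 3 h. The early maximum stood at 2.5 h in Cycle 1, above both of its starved libraries, and at 2 h in Cycle 2, where the starved library at -1 h was at 425. The minimum up to 27 h followed at 5.5 h in Cycle 1 (78.9) and 5 h in Cycle 2 (220). The mean change at 15 to 18 h was 0.55 (SE 0.244, limma adjusted p = 0.0521). It was 0.60 under TMM scaling (limma adjusted p = 0.0295) and was then called. The Cycles gave 1.31 and -0.22. Lin37 (chr7:31340460-31344857, minus strand), a subunit needed for repression by the complex, was called in no window. Its starved values were 126 and 71.1 in Cycle 1 and 72.5 and 63.5 in Cycle 2. Its largest change in any window was 0.30 (SE 0.163, limma adjusted p = 0.115), at 7 to 10 h.

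Mybl2, which encodes B-MYB, had the largest rise of the members. It spans chr2:162880423-162910424 on the plus strand. Starved values were 52.6 and 44.7 in Cycle 1 and 147 and 172 in Cycle 2. By 15 to 18 h it was at 446 to 467 in Cycle 1 and 237 to 263 in Cycle 2, so that each library was above all starved libraries. The rise was 3.83-fold (log2 change 1.94, SE 0.449, limma adjusted p = 0.000413), with 3.21 in Cycle 1 and 0.66 in Cycle 2. Mybl2 was first called at 11 to 14 h (log2 change 1.49, SE 0.449, limma adjusted p = 0.005), with 2.61 in Cycle 1 and 0.36 in Cycle 2. Before the rise the values declined to 21.1 at 5 h in Cycle 1 and 83.8 at 7 h in Cycle 2, but this was not called (at 4 to 6 h log2 change -0.71, SE 0.473, limma adjusted p = 0.192). The maximum was 490 at 15.5 h in Cycle 1 and 263 at 16 h in Cycle 2. Among the shared hours it was 467 at 15 h in Cycle 1.

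Foxm1, the forkhead factor of the mitotic programme, was below starved cells in the early windows and rose from 15 to 18 h on. The early decline was not called (at 4 to 6 h log2 change -0.70, SE 0.376, limma adjusted p = 0.106). It was seen in both Cycles, at -0.77 in Cycle 1 and -0.63 in Cycle 2. It spans chr6:128312985-128325911 on the plus strand. Starved values were 340 and 326 in Cycle 1 and 921 and 859 in Cycle 2. At 19 to 23 h it was at 1281 to 1765 in Cycle 1 and 1150 to 1306 in Cycle 2, above every starved library. The rise was 2.55-fold (log2 change 1.35, SE 0.344, limma adjusted p = 0.00103), with 2.24 in Cycle 1 and 0.45 in Cycle 2. At 11 to 14 h, when Mybl2 was called, the change of Foxm1 was 0.09 (SE 0.357, limma adjusted p = 0.849). It was called at 15 to 18 h (log2 change 1.00, limma adjusted p = 0.0158), where Cycle 2 gave 0.09, and this call was lost with 0 h alone as the starved level (limma adjusted p = 0.0632) and without either starved library of Cycle 1 (limma adjusted p = 0.0643 and 0.0708). Among the shared hours the maximum was at 22 h in Cycle 1 (1765) and at 26 h in Cycle 2 (1372). Over all libraries of Cycle 1 it was 1898 at 24.5 h, in the library that stood apart.

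The order of the rises was described, with no test, by the first hour past the middle between the minimum and the later maximum with the next library also past it, a measure added after the values were seen and taken over the shared hours. For Mybl2 this hour was 12 h in both Cycles, and for Foxm1 it was 15 h in both. For Rbl1 it was 15 h in Cycle 1 and 11 h in Cycle 2, for Tfdp1 9 h and 12 h, for Lin9 15 h and 14 h, and for Lin54 15 h and 16 h. On the shared hours Mybl2 preceded Foxm1 by 3 h in each Cycle, whereas the order of Rbl1, Tfdp1 and Lin9 against them changed between Cycles. With all libraries up to 27 h the hours of Cycle 1 were again 12 h for Mybl2 and 15 h for Foxm1 and Rbl1, but 8.5 h for Tfdp1, 11.5 h for Lin9 and 16 h for Lin54. With a running median of 3 libraries Mybl2 stayed at 12 h in both Cycles and Foxm1 was at 15 h and 18 h.

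**Figure D2:**
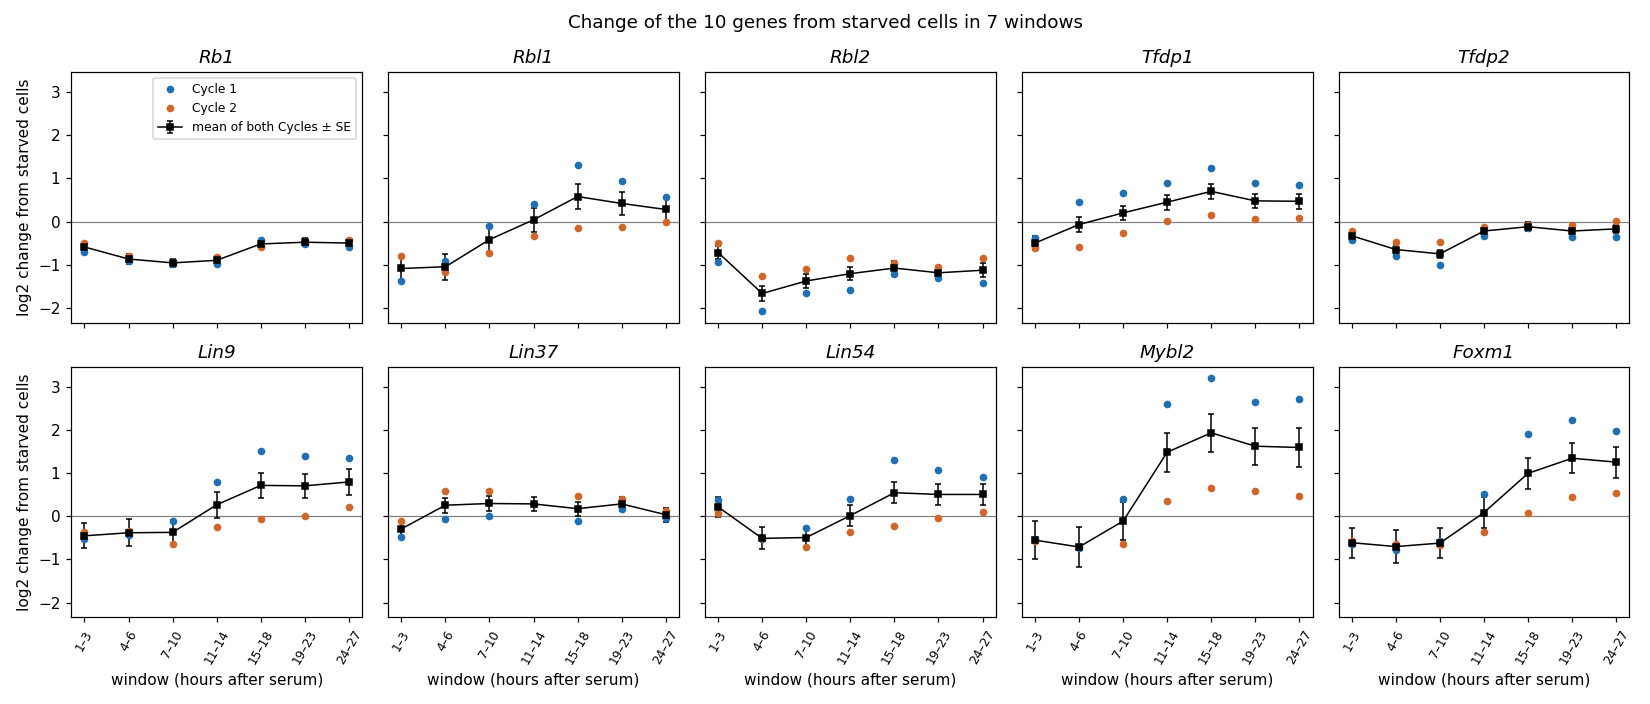
Log2 change from the starved libraries in 7 windows after serum for each of the 10 genes. Black squares are the mean of both Cycles with its SE, and blue and orange points are the changes of Cycle 1 and Cycle 2 against their own starved libraries. The Cycles lie close together for Rb1 (-0.99 and -0.93 at 7 to 10 h) and far apart for Mybl2 (3.21 and 0.66 at 15 to 18 h).

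Whether the members changed alike in both Cycles was tested with the Cycle by window terms over the same libraries. Neither Cycle was repeated, so this test takes its spread from the hours within the windows. Its p-values do not measure how a repeated time course would vary. Hours were compared as labelled, so a shift in time between the Cycles would enter these differences. Such a shift was not tested. The test called 6 of the 10 members, against 49.7% of all genes, a share near the background. They were Mybl2 (limma adjusted p = 3.41e-11), Foxm1 (1.4e-10), Lin9 (1.72e-08), Rbl1 (1.92e-07), Lin54 (8.41e-05) and Tfdp1 (0.000554). It did not call Rb1 (limma adjusted p = 0.451), Lin37 (0.139), Rbl2 (0.114) or Tfdp2 (0.0815). In single windows Cycle 2 minus Cycle 1 was 0.54 for Tfdp2 at 7 to 10 h (limma adjusted p = 0.0208). For Rbl2 it was 0.83 at 4 to 6 h (limma adjusted p = 0.0493) and 0.74 at 11 to 14 h (0.0489). No other window of these uncalled genes had an adjusted p under 0.05. In each of the 6 genes the difference was largest at 15 to 18 h, where the change in Cycle 2 minus that in Cycle 1 was -2.54 for Mybl2 (SE 0.27), -1.82 for Foxm1 (SE 0.229), -1.58 for Lin9 (SE 0.238), -1.54 for Lin54 (SE 0.292), -1.45 for Rbl1 (SE 0.255) and -1.09 for Tfdp1 (SE 0.225).

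The 6 genes started higher in Cycle 2. The mean of its starved libraries was 3.28 times that of Cycle 1 for Mybl2, 2.67 times for Foxm1, 2.51 times for Lin9, 2.42 times for Lin54, 2.15 times for Rbl1 and 1.66 times for Tfdp1. The ranges of the starved libraries did not overlap in any of them. For the other members the same ratio was 1.23 (Rb1), 0.874 (Tfdp2), 0.872 (Rbl2) and 0.689 (Lin37). The order of the levels was reversed at 15 to 18 h, with medians in Cycle 1 and Cycle 2 of 456 and 256 for Mybl2, 1242 and 917 for Foxm1, 324 and 256 for Rbl1, 932 and 737 for Tfdp1, 174 and 138 for Lin9 and 397 and 328 for Lin54. Libraries of the Cycles did not overlap there for Mybl2, Rbl1 and Tfdp1 and did for Foxm1, Lin9 and Lin54. The starved sum of 24 mitotic genes was 9116 to 9694 in Cycle 1 and 28734 to 30338 in Cycle 2, and that of 24 S-phase genes was 8222 to 8507 and 17909 to 18191. Their part in the difference between Cycles was not tested. In bulk samples fewer cells expressing a gene and less RNA per cell cannot be told apart.

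**Figure D3:**
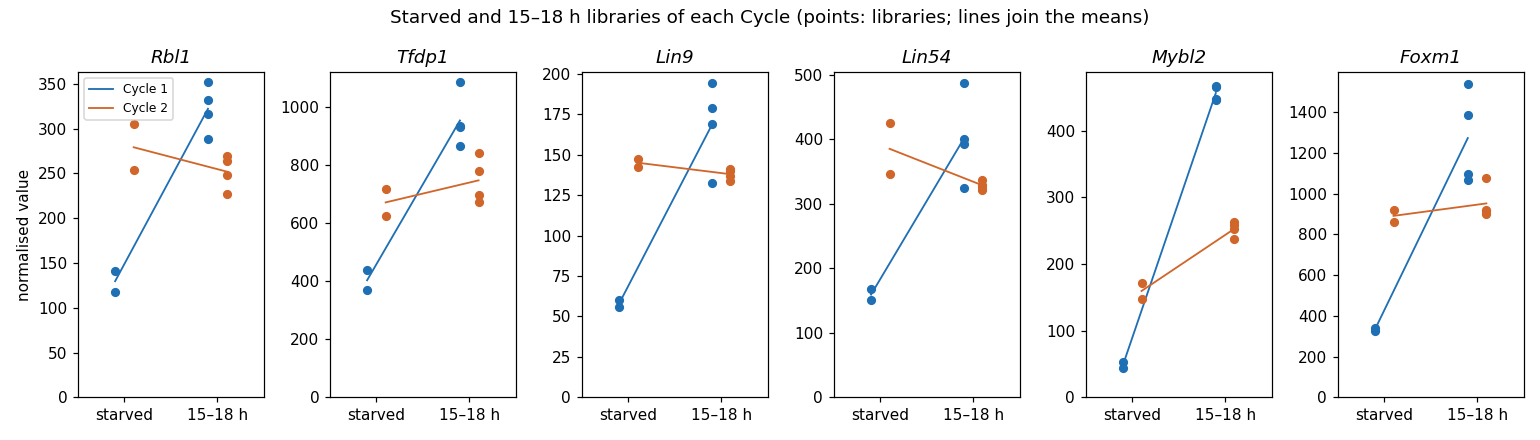
Normalised values of the starved libraries and of the libraries at 15, 16, 17 and 18 h for the 6 genes with a difference between Cycles. Points are libraries and lines join the means. Starved Cycle 2 libraries (orange) lie above those of Cycle 1 (blue) in all 6 genes, and at 15 to 18 h the means of Cycle 1 are the higher ones.

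The list of other subunits and partners held E2f1 to E2f6, Lin52, Rbbp4 and Dyrk1a, the kinase that promotes DREAM assembly. E2f1 to E2f6 were listed as a family that dimerises with DP partners, and not every one, E2f6 among them, binds pocket proteins. The median of this list was furthest from 0 at 15 to 18 h, at 0.30 beside -0.12 for all genes. There 2 of 9 genes were up (14.7% of all genes). None was down by limma or edgeR, and 1 had an unadjusted limma p under 0.05 and a negative change. The 2 that rose were E2f6 (log2 change 0.73, SE 0.12, limma adjusted p = 4.76e-06) and E2f1 (0.68, SE 0.217, limma adjusted p = 0.00797). Cycle 1 and Cycle 2 gave 0.96 and 0.49 for E2f6, and 1.10 and 0.25 for E2f1. At 4 to 6 h 1 was up and 3 were down, which is near the background of 13.3% and 30.5%. The gene that rose was E2f4, the E2F of DREAM (log2 change 1.10, limma adjusted p = 2.78e-11), in the window where Rbl2 had its largest fall. E2f1, E2f2 and Lin52 fell (-1.15, -1.04 and -0.73). E2f4, E2f2 and Lin52 are named here after their values were seen.

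The cyclins and kinases that phosphorylate pocket proteins were 8 genes. Their median was furthest from 0 at 15 to 18 h, at 0.55 beside -0.12 for all genes, and 4 were up (14.7% of all genes). None was down by limma or edgeR, and 1 had an unadjusted limma p under 0.05 and a negative change. Ccne1 rose by 1.79 in log2 (SE 0.379, limma adjusted p = 0.000144) and Ccne2 by 1.37 (SE 0.287, limma adjusted p = 0.000125). Cycle 1 and Cycle 2 gave 2.76 and 0.82 for Ccne1, and 2.47 and 0.27 for Ccne2. The other called genes were Ccnd1 (1.03) and Cdk2 (0.66), and the 4 not called were Ccnd2, Ccnd3, Cdk4 and Cdk6. At 4 to 6 h the list had 1 up and 1 down (13.3% and 30.5% of all genes), Cdk6 (0.63) and Ccnd3 (-1.10). Ccnd1, Cdk2, Cdk6 and Ccnd3 are likewise named after their values were seen.

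Genes of S phase that DREAM and E2F are known to control rose in the same windows as Mybl2. Of 24 such genes 3 were up at 7 to 10 h (13.6% of all genes), 17 at 11 to 14 h (14.4%) and 23 at 15 to 18 h (14.7%). The count at 7 to 10 h is near the background. The median at 15 to 18 h was 1.22, beside -0.12 for all genes. Rrm2, a subunit of ribonucleotide reductase, rose by 2.45 (SE 0.386, limma adjusted p = 2.1e-06) and Cdc6, a replication licensing factor, by 1.98 (SE 0.446, limma adjusted p = 0.000307). Cycle 1 and Cycle 2 gave 3.73 and 1.18 for Rrm2, and 3.09 and 0.86 for Cdc6. The median of the list was 1.95 in Cycle 1 and 0.42 in Cycle 2. Of 24 mitotic genes known as targets of MuvB with B-MYB and FOXM1, 13 were down at 4 to 6 h (30.5% of all genes). Their median was -1.07 beside -0.26 for all genes. Nusap1, a spindle protein, fell by 1.98 (SE 0.467, limma adjusted p = 0.000478) and Cenpf, a kinetochore protein, by 1.88 (SE 0.463, limma adjusted p = 0.000777). Cycle 1 and Cycle 2 gave -2.42 and -1.54 for Nusap1, and -2.09 and -1.66 for Cenpf. Without the Cycle as a block 8 of the 24 were called in this window. Of the same list 2 genes were up at 15 to 18 h (14.7% of all genes) and 13 at 19 to 23 h (15.4%), the window of the largest change of Foxm1. The median at 19 to 23 h was 2.12 in Cycle 1 and 0.04 in Cycle 2. E2f1, Ccne1 and Ccne2 stand in 2 lists each.

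**Figure D4:**
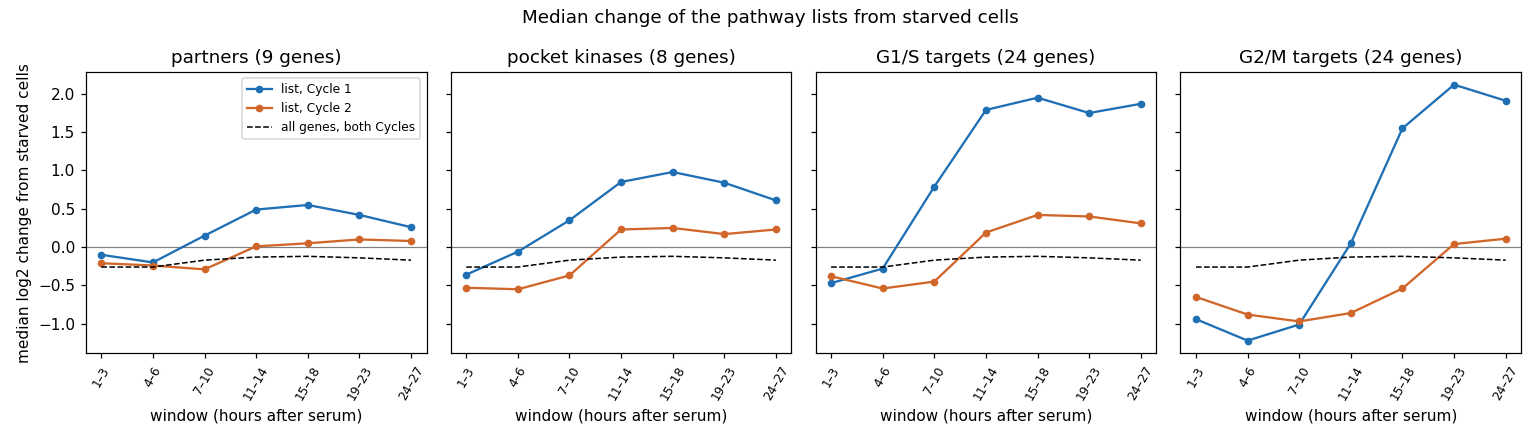
Median log2 change from starved cells of 4 gene lists in 7 windows after serum, in Cycle 1 (blue) and Cycle 2 (orange), with the median of all 15895 genes over both Cycles (dashed). The median of the S-phase list (G1/S targets) at 15 to 18 h was 1.95 in Cycle 1 and 0.42 in Cycle 2, and that of the mitotic list (G2/M targets) at 19 to 23 h was 2.12 and 0.04.

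Genes with the profile most like that of a member were sought by Pearson correlation of log2(value + 1) over the 95 libraries, among 11882 genes with a mean value of at least 20. Successive libraries share a culture series and both Cycles share the serum step, so the coefficients are descriptions. For Mybl2 the closest were Mcm10 (0.974), Mcm5 (0.971) and Rad51ap1 (0.970), which are genes of replication and recombination. For Foxm1 they were Aurkb (0.985), Tpx2 (0.985) and Espl1 (0.984), which act in mitosis. For Rbl1 they were Atad2 (0.977), Fancm (0.967) and Ncapd3 (0.959). For Rbl2 they were Wdr19 (0.922), Bbx (0.899) and Psd3 (0.896).

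After 27 h only Cycle 1 was sampled, and the values are given with no test. Rbl2 stayed at 134 to 170 from 28 to 33 h and then was at 293, 360, 456, 543 and 511 at 34, 35, 36, 37 and 38 h. The last 3 of these were above both starved libraries of Cycle 1. The median of 34 to 38 h was 3.19 times that of 28 to 33 h, the largest ratio among the members. Tfdp2 went from a median of 272 to 489 (1.8 times), with 570 at 36 h, and Rbl1 from 233 to 381 (1.64 times), with 424 at 38 h. Lin37 went from 76.7 to 117 (1.52 times), with 136 at 38 h, and Rb1 from 138 to 195 (1.41 times), with 280 at 37 h. The ratio was 1.26 for Lin54, 1.22 for Foxm1, 1.11 for Lin9, 0.877 for Tfdp1 and 0.74 for Mybl2. Mybl2 was at 202 and 209 at 37 and 38 h, below its 275 to 357 of 28 to 33 h, and Foxm1 had its highest value of these hours, 1807, at 36 h. With the authors' scaling the 6 members Rb1, Rbl1, Rbl2, Tfdp2, Lin9 and Lin54 had their highest value of all Cycle 1 libraries at 36 h or later. It was 226 at 36 h for Lin9 and 512 at 37 h for Lin54. Lin54 was at 488 at 18 h, and the TMM factors, by which values are divided, were 1.034 at 18 h and 1.099 at 37 h. Under TMM scaling its 18 h value is thus the higher of these.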

How the data were processed

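The authors demultiplexed the reads with CASAVA, aligned them to mm9 with STAR, counted reads on exons of both strands with HOMER and scaled each library to a common total. The deposited values are this normalised signal, 1 row per gene, averaged over transcripts for 4 of the 10 members (Rbl1, Tfdp2, Lin9 and Lin54). Tool versions are not given in the sources used here. Of 96 columns 95 matched a library by name, and 1 was not used, so the 12.5 h library of Cycle 1 was not analysed here.

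The members and gene lists were chosen with earlier results of these data known. From the lists, the genes named were the 2 largest rises and 2 largest falls called in the window with the largest median, and the 3 genes most like Rbl1, Mybl2, Foxm1 and Rbl2. limma 3.58.1 (R 4.3.3) was run on log2(value + 1) for all genes, over 62 libraries (4 starved, 29 hours in each Cycle), with Cycle as a block because the labels assign each library to a time course. Differences between Cycles correlated across genes with a median of 0.471 over 406 pairs of shared hours, near or far in time. A constant offset of a gene between Cycles, which the block removes, also gives such a correlation. It therefore does not measure how residuals depend on each other. The fit takes residuals of neighbouring hours to be independent. This was not tested, and p-values may be too small. Whole reads were recovered from the step of each column, with 94.23% to 96.17% of low values within 0.1 of a whole multiple, and edgeR 4.0.16 was run on them as an alternative. Alternatives covered the block, pseudocount, filter, scaling, starved baseline, fold minimum and leaving out libraries. Depths cover counting error only. Gene positions are from GENCODE vM1 on NCBIM37, and promoters from RefSeq on GRCm38.p6. Figures were drawn with matplotlib 3.10.9 in Python 3.11.15.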

Additional observations from a re-analysis of the deposited data

Results flagged for a closer look

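The change from starved cells differed between the Cycles, by the Cycle by window test, in 6 members, beside 49.7% of all genes. Neither Cycle was repeated, so the p-values of that test do not measure the spread between time courses. At 15 to 18 h the change in Cycle 2 minus that in Cycle 1 was -1.45 for Rbl1, -1.09 for Tfdp1, -1.58 for Lin9, -1.54 for Lin54, -2.54 for Mybl2 and -1.82 for Foxm1 on the log2 scale. All 6 had higher starved values in Cycle 2.

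In Cycle 1, with the authors' scaling, 6 members had a higher value in the libraries at 28 to 38 h than in any earlier library, the starved ones included. The libraries at 28 to 38 h entered no test. The members were Rb1 (280 at 37 h), Rbl1 (424 at 38 h), Rbl2 (543 at 37 h), Tfdp2 (570 at 36 h), Lin9 (226 at 36 h) and Lin54 (512 at 37 h). For Lin54 the value of 488 at 18 h becomes the higher one under TMM scaling. No other Cycle was sampled at these hours.

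Among the 4 starved libraries Lin37 had 1 value far from the rest, 126 at -1 h of Cycle 1 against 63.5 to 72.5. The gap took 0.856 of the range, and chance alone gives such a gap in about 1 of 20 groups.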

How the results depend on the processing

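The replicate block changed few calls. Without it the test over the time course called 5 members and 7365 genes, and the counts of members were 4 at 15 to 18 h and 3 each at 19 to 23 h and 24 to 27 h, the difference being Lin9. The count of mitotic genes called at 4 to 6 h was 8 in place of 13. TMM scaling, median-of-ratios scaling and edgeR each called 1 member at 1 to 3 h. With 0 h alone as the starved level 3 members were called at 15 to 18 h. Without a fold minimum 10 members and 12609 genes (79.3%) passed in the test over the time course, and 5 members at 1 to 3 h and 7 at 19 to 23 h. With a 1.5-fold minimum that test called 10 members and 11470 genes (72.2%). A 2-fold minimum called 1 member at 1 to 3 h, 2 at 4 to 6 h, 1 at 7 to 10 h and 3 at 15 to 18 h.

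Leaving out 1 Cycle or 1 starved library, the test over the time course called 0 to 7 members and 0 to 8598 genes. The windows called 0 to 4 members at 1 to 3 h, 4 to 5 at 4 to 6 h, 3 to 4 at 7 to 10 h, 0 to 5 at 11 to 14 h, 1 to 7 at 15 to 18 h, 1 to 7 at 19 to 23 h and 1 to 6 at 24 to 27 h, and 6 to 7 members differed between Cycles. Each Cycle alone leaves 1 residual degree of freedom, between its starved libraries. The counts of 0 in the limma test over the time course came without either Cycle, where an unadjusted p under 0.05 was found for 3 members and 5494 genes (without Cycle 1) and 6 members and 6445 genes (without Cycle 2). The 0 members at 1 to 3 h and 11 to 14 h came without Cycle 1, with 7 and 4 members at an unadjusted limma p under 0.05. No edgeR fit of 1 Cycle was run. Without the starved -1 h library of Cycle 1 there were 3 members at 15 to 18 h, and without its 0 h library 2. Without the -1 h library of Cycle 2, 7 calls of Tfdp1, Rbl1 and Lin54 from 11 h on were gained, with changes of 0.61 to 0.72, and there were 7 members at 15 to 18 h. Leaving out the 1 h and 26 h libraries of Cycle 1, chosen after seeing the data, the call of Rb1 at 1 to 3 h was lost and no other. Over 16 alternative fits, 1006 of 1120 changes of a member in a window kept direction and side of the threshold, 47 fell below it, 34 passed it and 33 changed sign. Of the 33, 32 were called in neither fit, and 1 was Lin9 at 15 to 18 h, at -0.07 without Cycle 1.

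The sign of Tfdp1 at 4 to 6 h (-0.07) changed to 0.11 with TMM, 0.12 with median-of-ratios scaling, 0.06 with edgeR and 0.04 with 0 h alone as starved. The other sign changes came on leaving out a Cycle or a starved library, which gave ranges of -0.33 to 0.41 (11 to 14 h), -0.14 to 1.31 (15 to 18 h), -0.12 to 0.95 (19 to 23 h) and -0.01 to 0.57 (24 to 27 h) for Rbl1. For Tfdp1 the ranges were -0.60 to 0.46 (4 to 6 h) and -0.26 to 0.66 (7 to 10 h), and for Tfdp2 -0.35 to 0.01 (24 to 27 h). For Lin9 they were -0.25 to 0.80 (11 to 14 h) and -0.07 to 1.51 (15 to 18 h). For Lin37 they were -0.06 to 0.58 (4 to 6 h), -0.11 to 0.48 (15 to 18 h) and -0.05 to 0.24 (24 to 27 h). For Lin54 they were -0.36 to 0.40 (11 to 14 h), -0.22 to 1.31 (15 to 18 h) and -0.04 to 1.07 (19 to 23 h). For Mybl2 the range was -0.64 to 0.41 (7 to 10 h) and for Foxm1 -0.36 to 0.53 (11 to 14 h).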
